A study of Homo sapiens with 4 samples.

Results

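Eph receptors and their ephrin ligands were followed in HCT116, a human colon carcinoma line, with and without a CRISPR knockout of TOP3B, a topoisomerase that acts on both DNA and RNA. The genes were the rows of the count table that carried 10 chosen symbols: the EphB receptors EPHB2, EPHB3 and EPHB4, the EphA receptors EPHA1, EPHA2 and EPHA4, the ephrin-A ligands EFNA1 and EFNA4, and the ephrin-B ligands EFNB1 and EFNB2. 8 of these 10 genes, of 35820 rows in all, were analysed, and EFNB1 and EFNB2 were not analysed here. Knockout (KO) cells were clone E2-4, made with a guide RNA against exon 2 of TOP3B, and their reference was wild-type (WT) HCT116, with 2 libraries of ribosome-depleted total RNA in each group. KO is therefore 1 clone, and clone and genotype cannot be told apart. Whether the 2 libraries of a group were grown as separate cultures is not stated, so p-values measure only the spread between these libraries, which may be technical. The study's question was the role of TOP3B in transcription and in R-loops, where nascent RNA pairs with its DNA template.

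Eph receptors are receptor tyrosine kinases whose ligands, the ephrins, sit on the membrane of the neighbouring cell. Ephrin-A ligands are held by a lipid anchor and ephrin-B ligands cross the membrane, so that a contact can signal forward into the receptor cell and in reverse into the ligand cell. In the intestine EPHB2 and EPHB3 are targets of WNT/beta-catenin signalling, highest at the crypt base, and their gradient against ephrin-B1 and ephrin-B2 keeps cells in position along the crypt.

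Depth was 10450048 and 16143634 estimated counts in KO, against 15141919 and 11750516 in WT. CPM values are counts scaled to a common library size by TMM, whose factors were 1.06 and 1.06 in KO and 0.858 and 1.04 in WT, so WT replicate 1 stood apart. A count of 0 allows up to 0.176 to 0.271 CPM in a single library, and floors and intervals on counts cover counting error only. TOP3B RNA was still present, at 43.9 and 54.7 CPM in KO against 57.1 and 66.5 CPM in WT, and this level does not check the genotype, because a guide cut need not remove the RNA. Of 10 analysed markers of colonic epithelium, 6 passed the filter on low counts, among them EPCAM, KRT8, KRT18 and KRT19, while KRT20 and CEACAM5 were at 0 in every library. Markers of endothelium, fibroblasts and leukocytes were low, with summed levels of 0 to 0.0904 CPM in KO and 0.0771 to 0.0819 CPM in WT for endothelial genes. Those sums were 0.632 to 1.23 CPM in KO and 1.31 to 1.72 CPM in WT for fibroblast genes, and 1.23 to 1.45 CPM in KO and 1.23 to 2.62 CPM in WT for leukocyte genes. The leukocyte markers PTPRC, CD3E and LYZ were at 0 in every library. The 5 neuronal markers summed to 26.4 and 27.8 CPM in KO and 33.4 and 29.2 CPM in WT, most of it from the tubulin gene TUBB3. Estimates were low for some ubiquitous genes, with ACTB at 54.2 and 59.1 CPM in KO and 32.8 and 41.5 CPM in WT, so the estimates of single genes may miss part of their reads.

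No member passed the main test. Of the 7 members that passed the filter on low counts, edgeR's quasi-likelihood test called 0 at an adjusted p under 0.05, where it called 1 of 12269 genes (0.00815%), NRIP1, which was lower in KO and is named after its value was seen. DESeq2 also called 0 of the 7, against 1.38% of 13258 genes (0.49% higher and 0.89% lower in KO), and limma-voom called 0. At an unadjusted p under 0.05 edgeR gave 4 of the 7, namely EPHB2, EPHA1 and EFNA4 lower and EPHA2 higher in KO, against 11.2% of all genes (4.97% higher and 6.21% lower in KO). DESeq2 gave 2 at that level, against 9.07% of all genes. With WT replicate 1 left out, edgeR gave 2 of the 7 (8.71% of all genes), and with WT replicate 2 left out it gave 3 (20.9%). With KO replicate 1 left out it gave 1 (7.02%), and with KO replicate 2 left out it gave 2 (7.57%). Fitted changes of at least 2-fold were found in 3 of the 7, EPHA2 higher and EPHA1 and EFNA4 lower, against 9.46% of all genes and 5.8% in the lower direction. Both KO libraries lay outside the WT range in 5 of the 7, with 1 above and 4 below, against 47.0% of all genes (23.5% each way). The median log2 fold change of the 7 was -0.38, and that of all genes tested was -0.01.

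**Figure D1:**
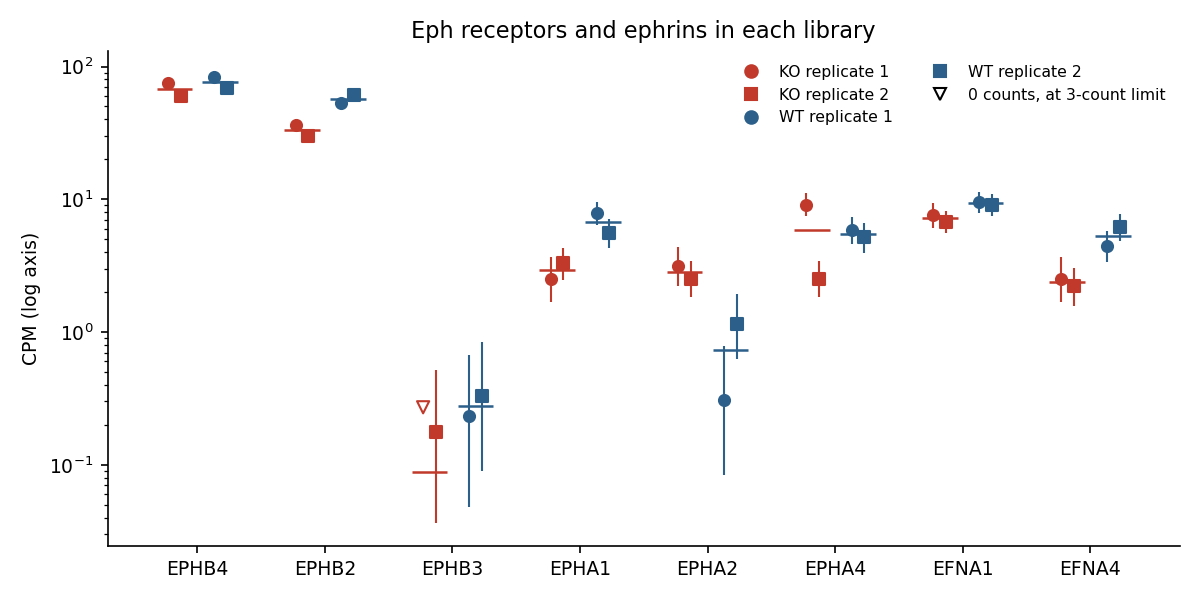
CPM (log axis) of the 8 analysed members in each library, with KO left of WT. Short horizontal lines are group means, vertical lines are exact 95% Poisson intervals on the counts, and the open triangle marks a count of 0 drawn at the limit of 3 counts. EPHB2, EPHA1, EFNA1 and EFNA4 have both KO libraries below both WT libraries, and EPHA2 has both above. EPHB3 is also lower in KO (0 and 0.176 CPM) than in WT (0.231 and 0.328 CPM), but lies near the floor in every library.

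Promoter sequence is shown for EPHB2, with the smallest p, for EPHA2, with both KO libraries above WT, and for EPHB4, with the most counts and overlapping groups. RefSeq promoters on GRCh38.p14 were matched for all 10 chosen symbols. Each line gives the 250 bases before the start on the gene's own strand, 5′ to 3′, with capitals for the letters CTTTGA (TCF/LEF), TGANTCA (AP-1) or GGGCGG (GC box) on either strand. These lie at chr1:22710588-22710837 on the plus strand for EPHB2, chr1:16156070-16156319 on the minus strand for EPHA2 and chr7:100827524-100827773 on the minus strand for EPHB4.
EPHB2: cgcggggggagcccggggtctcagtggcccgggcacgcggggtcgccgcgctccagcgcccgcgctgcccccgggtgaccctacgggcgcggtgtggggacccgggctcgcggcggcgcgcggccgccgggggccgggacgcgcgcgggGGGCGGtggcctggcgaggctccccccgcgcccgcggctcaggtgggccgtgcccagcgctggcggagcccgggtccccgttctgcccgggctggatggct
EPHA2: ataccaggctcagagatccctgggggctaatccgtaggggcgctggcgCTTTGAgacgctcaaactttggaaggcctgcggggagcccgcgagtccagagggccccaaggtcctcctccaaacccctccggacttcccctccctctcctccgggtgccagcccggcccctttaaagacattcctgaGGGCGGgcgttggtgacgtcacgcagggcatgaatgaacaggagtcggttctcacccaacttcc
EPHB4: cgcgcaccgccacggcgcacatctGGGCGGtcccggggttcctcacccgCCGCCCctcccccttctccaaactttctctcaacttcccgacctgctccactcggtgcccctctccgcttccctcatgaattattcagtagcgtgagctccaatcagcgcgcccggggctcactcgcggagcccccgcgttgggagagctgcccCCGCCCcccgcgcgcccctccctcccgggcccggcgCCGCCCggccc
The EPHB2 window was 84.8% G and C, that of EPHA2 63.2% and that of EPHB4 72.8%, against a median of 58.0% over 35116 promoters. The TCF/LEF letters occurred once in the EPHA2 window, 202 bases before the start, and in none of the other 7 windows of analysed members. They occur in 11.2% of all promoters. AP-1 letters, held by 6.57% of promoters, were in none of the 8 windows. GC box letters, held by 42.6% of promoters, occurred in all 8 windows, with 1 match in EPHB2, 1 in EPHA2 and 4 in EPHB4. A match is a description of letters and does not show binding. The end of each of the 8 windows lies in an annotated transcript on the same strand, so the windows are not upstream of every annotated start.

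EPHB2, the EphB receptor that marks crypt base cells, gave the smallest p among the members. It was on chromosome 1 (ENSG00000133216.16). EPHB2 had 36.5 and 29.8 CPM in KO libraries, against 53.6 and 60.8 CPM in WT libraries. The counts behind these levels were 404 and 507 in KO and 695 and 743 in WT. Both KO libraries were below both WT libraries. Group means were 33.1 ± 4.76 CPM in KO and 57.2 ± 5.16 CPM in WT (SD, n = 2 each), a level 1.73-fold lower in KO. The log2 fold change was -0.79 (SE 0.17, 95% interval -1.23 to -0.35). Its adjusted p was 0.278 by edgeR and 0.0695 by DESeq2. In bulk RNA, fewer cells with EPHB2 and less EPHB2 RNA per cell cannot be told apart. Summed markers of colonic epithelium were also lower, at 1522 and 1452 CPM in KO against 2584 and 2117 CPM in WT. Most of that sum came from KRT19, at 1206 and 1083 CPM in KO against 2243 and 1744 CPM in WT. Of the 6 tested markers, 3 were lower in KO without overlap, namely KRT19, EPCAM and CDH1, against 23.5% of all genes. DESeq2 made 1 call among these markers, KRT19, where it called 0.89% of all genes lower in KO. The adjusted p of KRT19 was 0.00298 by DESeq2 and 0.293 by edgeR. KRT8, KRT18 and CDX2 overlapped between the groups, with log2 fold changes of -0.08, 0.41 and -0.54. The part of these markers in the EPHB2 difference was not tested.

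EPHB4, a receptor for ephrin-B2 known from the separation of arteries and veins, held the most counts of any Eph receptor. Its levels were 74.8 and 59.8 CPM in KO libraries, against 83.8 and 69.4 CPM in WT libraries, with counts of 828 and 1018 in KO and 1088 and 847 in WT. The groups overlapped. The log2 fold change was -0.19 (SE 0.18, 95% interval -0.64 to 0.26; edgeR adjusted p = 0.679). That interval leaves out the EPHB2 estimate but overlaps the EPHB2 interval (-1.23 to -0.35), and a difference between these genes was not tested. The EPHB4 log2 fold change stayed negative, but its size depended on the library dropped. It shrank to -0.05 on dropping WT replicate 1 and to -0.03 on dropping KO replicate 2. Its size grew on dropping WT replicate 2 (-0.31) or KO replicate 1 (-0.36). EPHB4 (ENSG00000196411.9, chromosome 7) overlaps SLC12A9 on the other strand, and it is not given in the sources used here whether counting used strand.

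EPHB3, which shares the crypt base with EPHB2, was at or near the floor. It had 0 and 3 counts in KO and 3 and 4 counts in WT, or 0 and 0.176 CPM in KO against 0.231 and 0.328 CPM in WT. Exact 95% Poisson intervals reached 0.333 and 0.515 CPM in KO and 0.676 and 0.839 CPM in WT. EPHB3 (ENSG00000182580.2, chromosome 3) did not pass the filter, and no difference was detectable at this depth.

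EPHA2 was the member with both KO libraries above both WT libraries. EPHA2, a receptor of ephrin-A1 that is common in epithelial tumours, had 3.16 and 2.52 CPM in KO libraries, against 0.308 and 1.15 CPM in WT libraries. The WT libraries differed from each other. The counts were 35 and 43 in KO but 4 and 14 in WT, so EPHA2 passed the filter mainly through its KO counts. Group means were 2.84 ± 0.451 CPM in KO and 0.727 ± 0.593 CPM in WT (SD, n = 2 each), with a log2 fold change of 1.96 (SE 0.68, 95% interval 0.21 to 3.71). Its adjusted p was 0.420 by edgeR and 0.567 by DESeq2. Leaving out WT replicate 1 gave 1.30 and leaving out WT replicate 2 gave 3.18, while leaving out either KO library gave 1.79 or 2.11. EPHA2 (ENSG00000142627.12) lies on chromosome 1, like EPHB2.

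EPHA1, the receptor from which the family was first cloned, had 2.53 and 3.29 CPM in KO libraries, against 7.86 and 5.57 CPM in WT libraries. Both KO libraries were below both WT libraries. The counts were 28 and 56 in KO and 102 and 68 in WT, and the log2 fold change was -1.20 (SE 0.36, 95% interval -2.11 to -0.28; edgeR adjusted p = 0.382). EPHA1 (ENSG00000146904.8, chromosome 7) overlaps ZYX and EPHA1-AS1 on the other strand. ZYX, a focal adhesion protein, had 189 and 611 counts in KO and 751 and 438 counts in WT, and EPHA1-AS1 had 0 and 6 counts in KO and 0 and 2 in WT.

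EPHA4, a receptor that binds both ephrin classes, had no common direction within KO. It had 9.13 and 2.52 CPM in KO libraries, against 5.86 and 5.16 CPM in WT libraries. The 2 KO libraries lay on opposite sides of the WT libraries, and their exact 95% Poisson intervals did not meet (7.43 to 11.1 CPM and 1.83 to 3.40 CPM). The log2 fold change was 0.06 (SE 0.63, 95% interval -1.56 to 1.69; edgeR adjusted p = 0.973). It was -1.12 without KO replicate 1 and 0.73 without KO replicate 2, so the sign depends on which KO library is kept.

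The ephrin-A ligands EFNA1 and EFNA4 lie close together on chromosome 1, with EFNA3 between them. EFNA1, the main ligand of EPHA2, had 7.59 and 6.75 CPM in KO libraries, against 9.55 and 9.09 CPM in WT libraries. Its KO libraries were below both WT libraries, with a log2 fold change of -0.38 (SE 0.24, 95% interval -1.01 to 0.25; edgeR adjusted p = 0.569). EFNA4 had 2.53 and 2.23 CPM in KO libraries, against 4.47 and 6.14 CPM in WT libraries. Both KO libraries were again lower, with a log2 fold change of -1.16 (SE 0.36, 95% interval -2.07 to -0.24; edgeR adjusted p = 0.388). EFNA3, a related ligand, had 6.87 and 6.52 CPM in KO and 10.0 and 6.63 CPM in WT (log2 fold change -0.32; edgeR adjusted p = 0.692), and without WT replicate 1 that value was 0.012. The readthrough gene EFNA4-EFNA3 had 0 counts in both KO libraries and 3 and 0 counts in WT.

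**Figure D2:**
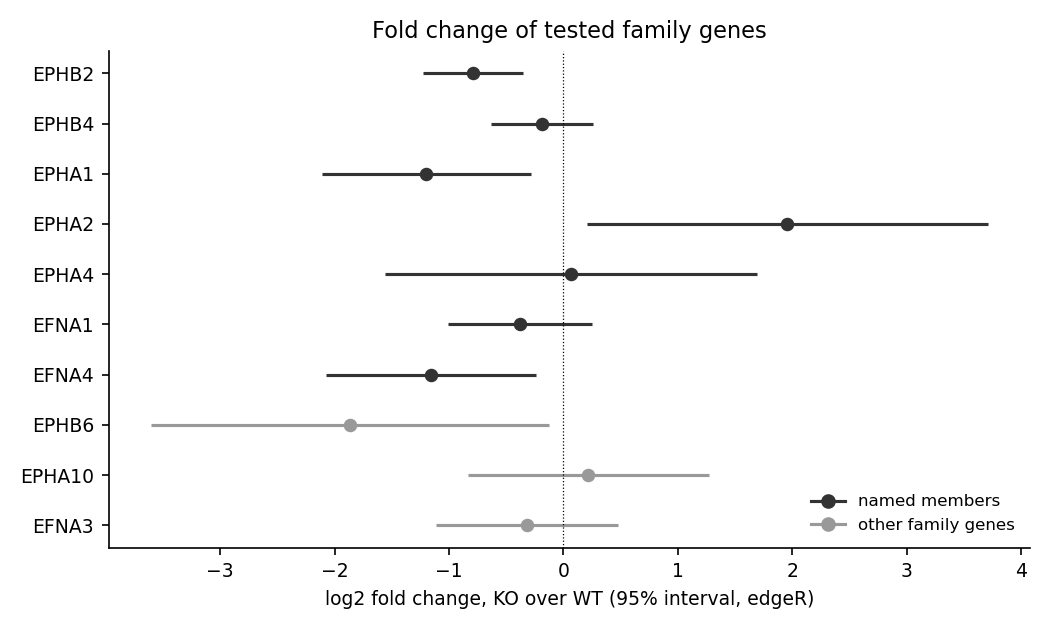
Log2 fold change of KO over WT with its 95% interval from edgeR for the 7 tested members (dark) and the 3 other tested family genes (grey). The intervals of EPHB2, EPHA1, EFNA4 and EPHB6 lie below 0 and that of EPHA2 lies above 0, although no adjusted p passed.

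No other family gene was called by edgeR or DESeq2. Of 12 further Eph and ephrin genes, 10 were analysed, of which EPHA3, EPHA5, EPHA6, EPHA7 and EFNA5 had 0 counts in every library. EPHA8 and EPHB1 had at most 2 counts in any library. EPHB6, a receptor that lacks kinase activity, had 7.05 and 1.82 CPM in KO libraries, against 11.8 and 20.0 CPM in WT libraries. Both KO libraries were below both WT libraries, but each pair of replicates differed (log2 fold change -1.87, SE 0.68). Its adjusted p was 0.432 by edgeR and 0.186 by DESeq2. Without KO replicate 1 this value was -3.12, and without KO replicate 2 it was -1.17. EPHA10, another receptor with an inactive kinase, had 4.61 and 3.58 CPM in KO and 2.62 and 4.42 CPM in WT (log2 fold change 0.21; edgeR adjusted p = 0.848), and without WT replicate 1 the value was -0.11.

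**Figure D3:**
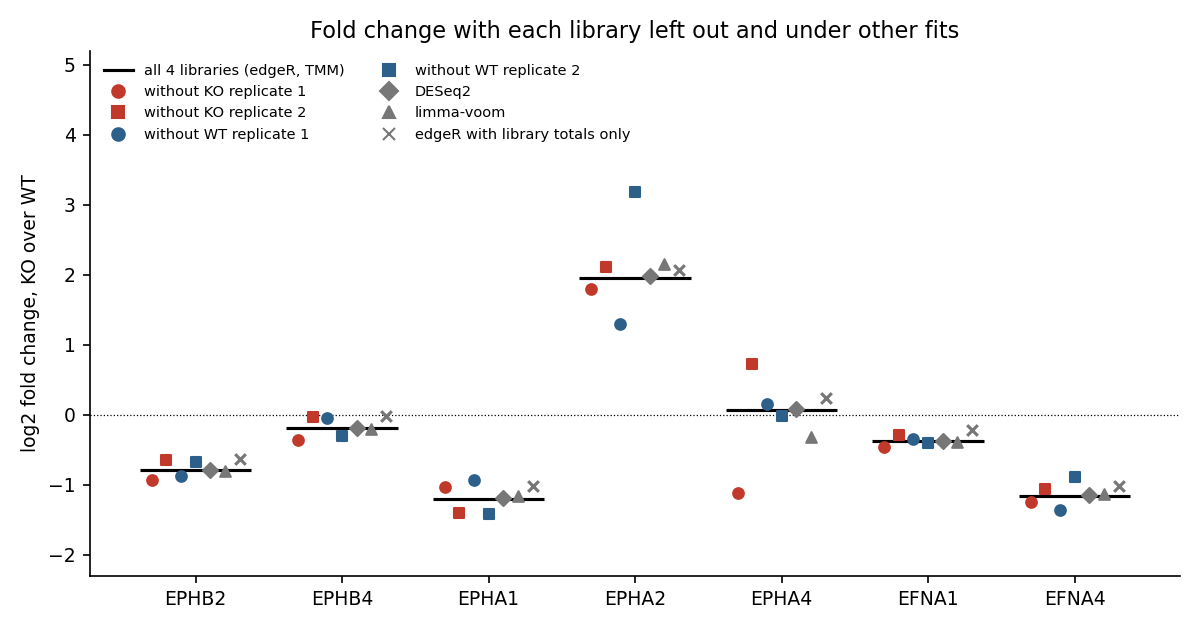
Log2 fold change of KO over WT of the 7 tested members with all 4 libraries (line), with each library left out in turn (coloured points) and under 3 other fits (grey points). EPHB2 stays between -0.94 and -0.64, EPHA2 between 1.30 and 3.18, and EPHA4 lies on both sides of 0.

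Across the family, Eph receptor reads summed to 1525 and 1763 counts in KO and 2156 and 2039 counts in WT. On the CPM scale these sums were 137.8 and 103.5 in KO and 166.1 and 167.0 in WT. EPHB4 made up 54.3% and 57.7% of receptor counts in KO, against 50.5% and 41.5% in WT. EPHB2 made up 26.5% (95% Wilson interval 24.3 to 28.8) and 28.8% (26.7 to 30.9) in KO, against 32.2% (30.3 to 34.2) and 36.4% (34.4 to 38.6) in WT. Its KO shares were below its WT shares, though the interval of KO replicate 2 met that of WT replicate 1. For each EPHB2 read there were 0.0866 and 0.0848 EPHA2 reads in KO, against 0.00576 and 0.0188 in WT. The WT ratios rest on 4 and 14 EPHA2 counts, and the ratio restates the levels of both genes given above. Reads of the EphA class together came to 19.4 and 11.9 CPM in KO and 16.7 and 16.3 CPM in WT, so the groups overlapped. They were 14.1% (95% Wilson interval 12.4 to 15.9) and 11.5% (10.1 to 13.1) of receptor counts in KO. In WT they were 10.1% (8.9 to 11.4) and 9.76% (8.5 to 11.1), and the interval of KO replicate 2 met both WT intervals. These shares follow gene length as well as level, so they compare libraries and not genes.

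**Figure D4:**
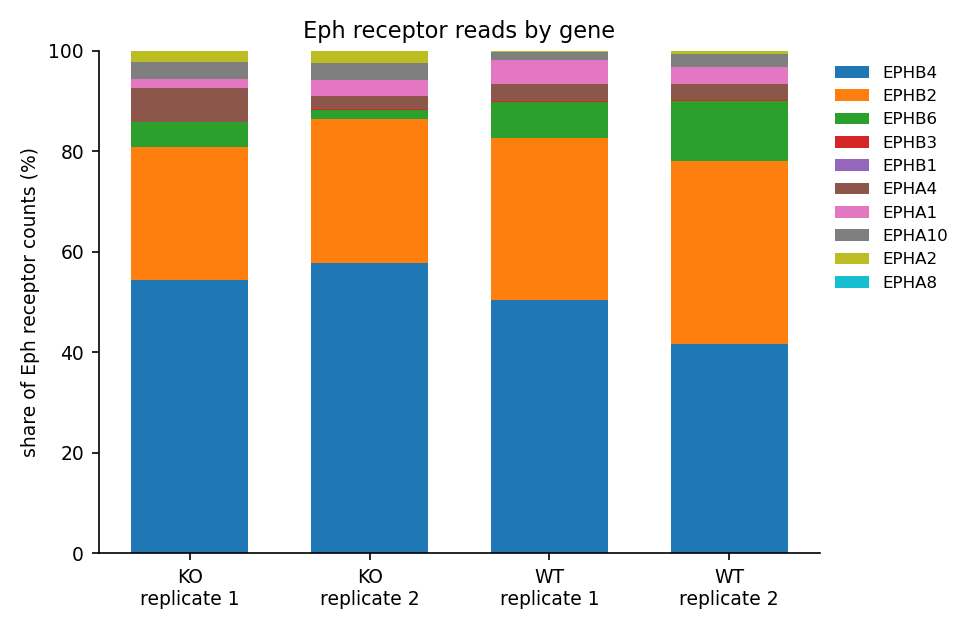
Share of Eph receptor counts (percent) taken by each receptor gene in each library, KO left of WT. EPHB4 and EPHB2 make up most of every bar; EPHB2 takes 26.5% and 28.8% in KO and 32.2% and 36.4% in WT.

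Levels of different genes can be set side by side only per length. The deposited RPKM divide by lengths that include much of the introns: the length implied for EPHB2 was 151 kb, where its longest protein-coding transcript in GENCODE 29 has 10.816 kb and the gene spans 210.7 kb. Among the 8 members, the mean RPKM was highest for EPHB4, with 5.18 ± 0.833 in KO and 5.24 ± 0.0127 in WT, and EFNA1 followed with 1.33 ± 0.110 in KO and 1.55 ± 0.166 in WT. EPHA1 and EFNA4 came next and did not differ beyond their spread, with 0.444 ± 0.0837 and 0.428 ± 0.0389 RPKM in KO and 0.915 ± 0.107 and 0.869 ± 0.310 RPKM in WT (SD, n = 2 each). EPHB2 was the fifth of the 8, at 0.232 ± 0.0340 RPKM in KO and 0.361 ± 0.0809 RPKM in WT. In KO it was level with EPHA2, at 0.230 ± 0.0378 RPKM, while EPHA2 in WT stood at 0.0530 ± 0.0517 RPKM. With CPM divided by the length of the longest transcript instead, EPHB2 moved up to 3.06 ± 0.441 per kb in KO and 5.29 ± 0.477 per kb in WT. On that scale EPHB2 did not differ beyond the spread from EFNA1 in WT (4.84 ± 0.170 per kb), and EPHB4 was still highest. EPHB3 was the lowest of the 8 genes on both scales. The place of EPHB2 in the order therefore depends on the length used. Whether the counts hold intron reads is not given in the sources used here. If they do, the longest transcript is too short a divisor.

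The genes around the members lay on both sides of 0, as did all genes tested, with 5951 above and 6318 below. Of the 10 nearest tested neighbours of EPHB2, 7 had a log2 fold change below 0 and 3 above, with a median of -0.20. For EPHA2 these counts were also 7 and 3, with a median of -0.09, and for EPHB4 they were 4 and 6, with a median of 0.11. The neighbours of EPHA1 had a median of 0.13 and those of EFNA4 a median of 0.01. Gene order was taken from GENCODE 29 on GRCh38.

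The 5 genes whose centred log2 CPM ran closest to EPHB2 over the 4 libraries were DDIT4L, ARHGEF10L, CMIP, ENO1 and CCDC18. Their distances were 0.0288, 0.0772, 0.0904, 0.0988 and 0.115 log2 units, among 7277 genes with a mean of at least 10 CPM. DDIT4L, for example, had 15.8 and 13.1 CPM in KO against 23.1 and 26.7 CPM in WT. ENO1 had 12.3 and 9.75 CPM in KO against 17.4 and 18.8 CPM in WT, and as for ACTB this estimate may miss part of its reads. With 4 libraries many genes run alike, and 50 had a Pearson's r of at least 0.99 with EPHB2. The points are the same 4 libraries for every gene, 2 of each genotype, so the likeness is a description.

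Genes that carry the signal of Eph receptors into the cell gave no call. Of 36 adaptors and effectors, 35 were analysed and 30 tested, with 10 above and 20 below 0, a median of -0.12, and 0 calls by edgeR or DESeq2. Among all 12269 genes tested, 5951 were above and 6318 below 0. At an unadjusted p under 0.05 edgeR gave 2 higher and 2 lower, against 4.97% and 6.21% of all genes. ABL2, a non-receptor tyrosine kinase of the ABL family, had 33.4 and 37.1 CPM in KO and 19.6 and 22.5 CPM in WT (log2 fold change 0.74; edgeR adjusted p = 0.296). GRB7, an SH2 adaptor, had 14.9 and 13.4 CPM in KO and 21.3 and 24.5 CPM in WT (-0.70; edgeR adjusted p = 0.349). The small GTPase RHOA had 4.34 and 3.23 CPM in KO and 0.616 and 0.983 CPM in WT (2.23; edgeR adjusted p = 0.274), a low estimate for a gene that every cell uses. Like EPHA2, RHOA passed the filter on low counts mainly through its KO counts. CDC42, named after its values were seen, had 4 and 35 counts in KO and 367 and 9 in WT, so 1 WT library sets its log2 fold change of -3.50.

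Among 9 partners of reverse signalling through ephrin-B, 6 were tested, with a median of -0.11 and 0 edgeR calls. At an unadjusted p under 0.05 edgeR gave 1 gene higher and 1 lower, against 4.97% and 6.21% of all genes. DESeq2 gave 1 call, higher in KO, against 0.49% of all genes in that direction. That call was PARD6A, a polarity protein, with 42 and 14 counts in KO and 0 counts in both WT libraries. Against a floor of 3 counts over the WT group it was at least 16.7-fold higher in KO, with an adjusted p of 0.0264 by DESeq2 and 0.337 by edgeR. On KO replicate 2 alone the bound was 6.9-fold. PARD6A passed the filter through its KO counts alone, and it was not tested without KO replicate 1. The list's median is the same with PARD6A at its bound. PTPN13, a phosphatase that binds ephrin-B by its PDZ domains, had 140.6 and 155.7 CPM in KO and 182.3 and 188.4 CPM in WT (-0.32; edgeR adjusted p = 0.428). SDCBP, the PDZ protein syntenin, had 79.1 and 86.7 CPM in KO and 97.5 and 104.2 CPM in WT (-0.28; edgeR adjusted p = 0.475).

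Of 11 proteases that can cut Eph receptors or ephrins, 8 were tested, with a median of -0.14 and 0 calls by edgeR or DESeq2. At an unadjusted p under 0.05 edgeR gave 1 higher and 0 lower, against 4.97% and 6.21% of all genes. ADAM10, the sheddase of ephrin-A ligands and of EphB2, had 247.0 and 248.8 CPM in KO and 331.1 and 273.6 CPM in WT (-0.29; edgeR adjusted p = 0.497). ADAM9 had 18.9 and 31.9 CPM in KO and 12.7 and 13.8 CPM in WT (0.94; edgeR adjusted p = 0.392), and ADAM17 had 0.633 and 0.881 CPM in KO and 0.848 and 2.05 CPM in WT (-0.91; edgeR adjusted p = 0.594). The ADAM17 value was -1.41 without WT replicate 1 and -0.14 without WT replicate 2. Of 5 phosphatases, 4 were tested, with a median of 0.03 and 0 calls by edgeR or DESeq2, and 0 at an unadjusted p under 0.05. The log2 fold changes of PTPRF, ACP1 and PTPRJ, all receptor or cytoplasmic tyrosine phosphatases, were 0.17, -0.17 and 0.06 (edgeR adjusted p 0.634 to 0.942). PTPRJ changed sign without WT replicate 1 (-0.16) or KO replicate 2 (-0.064).

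WNT/beta-catenin inputs and crypt target genes held RNF43, the listed gene with the smallest edgeR p. Of 19 genes, 16 were analysed and 12 tested, with 2 above and 10 below 0 and a median of -0.32. Among all genes tested, 6318 of 12269 were below 0. There were 0 edgeR calls and 1 DESeq2 call, lower in KO, where DESeq2 called 0.89% of all genes in that direction. At an unadjusted p under 0.05 edgeR gave 0 higher and 4 lower, against 4.97% and 6.21% of all genes. RNF43, a ubiquitin ligase that removes WNT receptors, was that call, with 17.9 and 20.6 CPM in KO against 91.8 and 84.8 CPM in WT. Its log2 fold change was -2.19 (SE 0.15), with an adjusted p of 0.0729 by edgeR and 2.33e-19 by DESeq2. With a library left out, the edgeR adjusted p of RNF43 was 0.0586 (WT replicate 1 omitted) or 0.00448 (WT replicate 2), and 0.403 (KO replicate 1) or 0.383 (KO replicate 2). It was 0.0198 with library totals and 0.00839 with no filter on low counts. AXIN2, a scaffold of the beta-catenin destruction complex, had 13.6 and 8.04 CPM in KO and 22.2 and 20.0 CPM in WT (-0.97; edgeR adjusted p = 0.388). TCF7L2, the partner of beta-catenin on DNA, had 47.0 and 46.0 CPM in KO and 56.9 and 60.2 CPM in WT (-0.33; edgeR adjusted p = 0.445). This list was drawn up with earlier results for RNF43 and AXIN2 known, so its direction is not independent of them.

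Of 8 membrane proteins reported to work with Eph receptors or ephrins, 6 were tested, with 1 above and 5 below 0, a median of -0.32 and 0 calls by edgeR or DESeq2. Among all genes tested, 6318 of 12269 were below 0. At an unadjusted p under 0.05 edgeR gave 1 higher and 3 lower, against 4.97% and 6.21% of all genes. The tight-junction protein CLDN4 had 19.1 and 17.8 CPM in KO and 31.1 and 36.7 CPM in WT (-0.88; edgeR adjusted p = 0.260). ERBB2, a receptor tyrosine kinase, had 135.9 and 132.4 CPM in KO and 180.3 and 161.3 CPM in WT (-0.35; edgeR adjusted p = 0.411). E-cadherin, encoded by CDH1, had 12.9 and 10.6 CPM in KO and 23.6 and 16.2 CPM in WT (-0.76; edgeR adjusted p = 0.420).

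**Figure D5:**
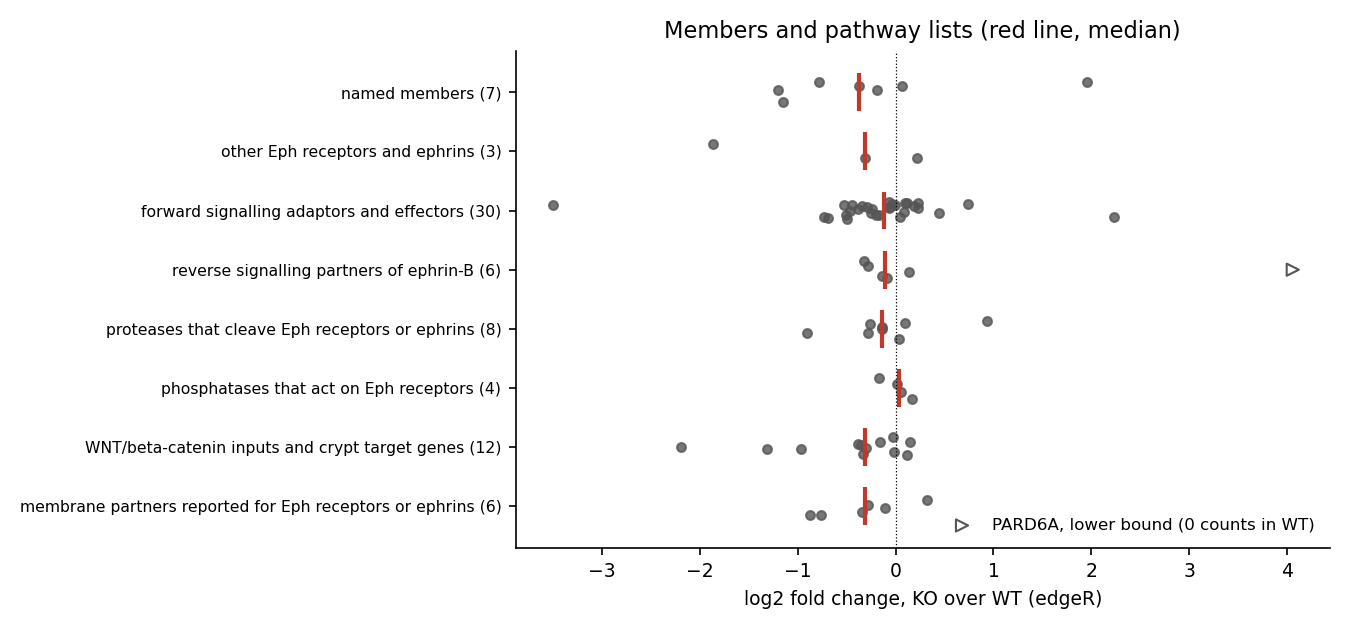
Log2 fold change of KO over WT for each tested gene of the members and of the 7 pathway lists, with the number tested in brackets and the list median as a red line. Medians run from -0.38 for the members to 0.03 for phosphatases; PARD6A is drawn at its lower bound because its WT counts were 0, and CDC42 is the point at -3.50.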

How the data were processed

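RNA was measured in 2 KO and 2 WT libraries. Estimated counts per gene, rounded to whole numbers, and RPKM for the same libraries were deposited by the authors. Quantification used Salmon 1.10.1 and build hg19, per the submitters' processing notes. For the annotation, strand setting and RPKM gene lengths, the method was not given in the sources used here.

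Counts were tested over the whole table with edgeR 4.0.16 (TMM, filterByExpr, quasi-likelihood F-test on genotype, Benjamini-Hochberg adjustment, threshold 0.05) in R 4.3.3, and the steps were tested on simulated data. DESeq2 1.42.0 and limma-voom (limma 3.58.1) were alternatives. An SE is the log2 fold change divided by the square root of F. With 2 libraries against 2, an exact permutation test cannot go below p = 0.333 and was not used.

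The members and gene lists were chosen with earlier results of these data known. Beside the members, the genes named were all tested family genes and the 3 of smallest edgeR p in each list. RPKM was used for levels only. GENCODE 29 gave identifiers, gene order and lengths.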

Additional observations from a re-analysis of the deposited data

How the results depend on the processing

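No member was called under any of the 10 alternatives, namely DESeq2, RLE factors, library totals, no filter on low counts, limma-voom, the replicate block and each library left out. EPHB2, EPHA1, EFNA4, EFNA1, EPHB4 and EPHA2 kept their direction under all 10, with EPHB2 between -0.94 and -0.64 and adjusted p between 0.0695 and 0.655. EPHA4 was -0.31 by limma-voom and -0.17 with the replicate block, was -0.012 without WT replicate 2, and ran from -1.12 to 0.73 with a library left out. With a library left out EPHA10 ran from -0.11 to 0.65, EFNA3 from -0.57 to 0.012 and PTPRJ from -0.16 to 0.32. The cause was not tested. Over all genes, edgeR's 1 call (0 higher, 1 lower) became 183 with DESeq2 (65 higher, 118 lower), 42 with library totals only (15 higher, 27 lower) and 34 with no filter (7 higher, 27 lower), and ran from 0 to 575 with a library left out, the 575 without WT replicate 2. Library totals moved the median of all genes from -0.01 to 0.14, and EPHB4 then stood at -0.02. The labels do not say that replicate numbers mark a shared culture or day. Deviations of same-numbered libraries correlated at 0.0584, and the replicate block gave 0 member calls and 1 call over all genes. A fit without a library leaves 1 arm with a lone sample, assumed to vary like the other group. Depth limits EPHB3 and EPHA2, which had 0 to 4 and 4 to 43 counts.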
